A study of Mus musculus with 18 samples.

Results

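The Hox genes are the homeobox genes of the 4 mouse clusters HoxA, HoxB, HoxC and HoxD. They were chosen by name alone: every row of the count table whose Ensembl identifier carries a mouse symbol made of Hox, a cluster letter and a number. All 39 Hox genes were in the table, out of 21647 genes listed, and 34 of them had at least 1 read in the 18 libraries. Hoxc12, Hoxd1, Hoxd10, Hoxd11 and Hoxd13 had none.

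The study sequenced messenger RNA from cultured mouse cells labelled as aortic endothelial cells of embryos, from wild-type (control) mice and from Tg737 orpk/orpk mice, which carry an insertion mutation in Ift88, a gene of the transport system that builds cilia (orpk cells below). Each genotype was kept static or placed under laminar shear stress of 2 or 30 dyn/cm2 for 48 h, which gives 6 groups of 3 libraries. Both genotypes were grown on gelatin in medium with 2% serum, and cells were serum starved for 24 h before flow. The sources used here do not give how many embryos or isolates stand behind each genotype, so genotype and isolate cannot be told apart, and p-values measure the spread between libraries, which may be technical.

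Hox genes encode transcription factors that bind DNA through a homeodomain and give cells of the embryo their position along the head-to-tail axis. Within a cluster the genes lie in the order in which they are switched on, from low-numbered genes, used from the hindbrain backwards, to high-numbered genes, used in the trunk, tail, limbs and urogenital tract, and genes of the same number in different clusters are paralogs. The TALE homeodomain proteins of the PBX and MEIS families bind DNA with them, while Polycomb proteins keep silent Hox genes closed and Trithorax proteins keep active ones open. Cells in culture, vessel wall cells among them, are known to keep a Hox pattern that reflects the body site they came from.

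Library totals ran from 13626480 to 17387553 reads. Ift88 itself had 12.8 to 17.4 CPM (CPM is the count scaled to library size by edgeR's trimmed mean of M-values) in the wild-type libraries and 6.37 to 8.46 CPM in the orpk libraries, with log2 differences of -0.99, -0.91 and -0.95 in static, 2 and 30 dyn/cm2 culture (largest edgeR adjusted p = 8.68e-11). The endothelial label was not borne out by its markers: the 13 endothelial markers summed to 0.772 to 2.07 CPM in the 9 wild-type libraries and 8.31 to 13.5 CPM in the 9 orpk libraries. Cdh5 and Tie1, which define endothelium, had 0 reads in all 9 wild-type libraries, which allows up to 3 reads a group. By contrast 11 nephron and urogenital markers summed to 1258 to 1487 CPM in static wild-type libraries and 88.7 to 94.0 CPM in static orpk libraries, and 10 fibroblast markers to 986 to 1053 CPM and 40628 to 41507 CPM. All 10 fibroblast markers were higher and 6 of 9 tested nephron markers lower in static orpk cells, with 3 higher. These lists differ between the genotypes, and their part in the Hox results was not tested. In bulk RNA, fewer cells of a type and less RNA per cell cannot be told apart. The library labelled wild-type 2 dyn/cm2 replicate 1 stood apart from its 2 partners (chi-square per degree of freedom 6.21 and 7.59, against at most 3.72 for any other pair), followed by orpk 2 dyn/cm2 replicate 2 (3.34 and 3.72). Counts that use them are given with and without them.

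The homeodomain code was shared by all 39 genes, and 60 coding bases around its most conserved stretch, the codons for Trp-Phe-Gln-Asn in the DNA-reading helix, show how close the paralogs are. The segments below (GENCODE M21 transcripts, GRCm38, 5′ to 3′, the 12 bases of those codons in capitals) belong to 7 genes described in detail here: the highest gene per kb in each genotype (Hoxb9 and Hoxc6) and 5 with a wide genotype difference or flow response.
Hoxa10: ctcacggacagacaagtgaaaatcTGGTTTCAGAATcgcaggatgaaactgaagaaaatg
Hoxb9: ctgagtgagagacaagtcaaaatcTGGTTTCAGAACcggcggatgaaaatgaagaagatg
Hoxb13: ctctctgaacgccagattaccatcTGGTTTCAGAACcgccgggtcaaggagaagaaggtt
Hoxc6: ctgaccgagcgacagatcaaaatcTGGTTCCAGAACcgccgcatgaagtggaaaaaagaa
Hoxc8: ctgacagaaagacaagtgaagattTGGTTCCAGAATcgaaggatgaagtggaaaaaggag
Hoxc13: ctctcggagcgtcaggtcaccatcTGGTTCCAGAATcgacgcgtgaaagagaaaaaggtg
Hoxd8: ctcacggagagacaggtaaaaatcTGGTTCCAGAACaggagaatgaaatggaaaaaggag
Over the 42 pairs with the same paralog number, 43 to 58 of the 60 bases were identical (median 50), against a median of 44 over all 741 pairs. Hoxb13 and Hoxc13 shared 47 bases, and Hoxb8 and Hoxc8 shared 53. No paralog pair was identical over the segment, and at most 1.44% of the 50-base windows of any Hox gene (Hoxc9) occurred in a gene elsewhere, so that 50-base reads could be told apart between paralogs over nearly all of their length.

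Each culture expressed a Hox code of about 21 genes, but from different clusters. With detection set at a group mean of 1 CPM, 20 to 22 of the 39 genes were detected in each group. Wild-type cells in all 3 cultures had the HoxA genes up to Hoxa10, Hoxb2 to Hoxb9 and Hoxb13, with Hoxc13 as the single HoxC gene and Hoxd8, joined by Hoxd4 in static culture and at 2 dyn/cm2, from HoxD. Static orpk cells had 7 HoxA genes, Hoxb2 to Hoxb9, the run Hoxc4, Hoxc5, Hoxc6, Hoxc8 and Hoxc9, and Hoxd8. The highest paralog number detected was 13 in every wild-type group and 9 in static orpk cells. At 2 and 30 dyn/cm2 it was 10 in orpk cells, through Hoxa10 at 1.44 and 1.17 CPM, just above the detection level.

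**Figure D1:**
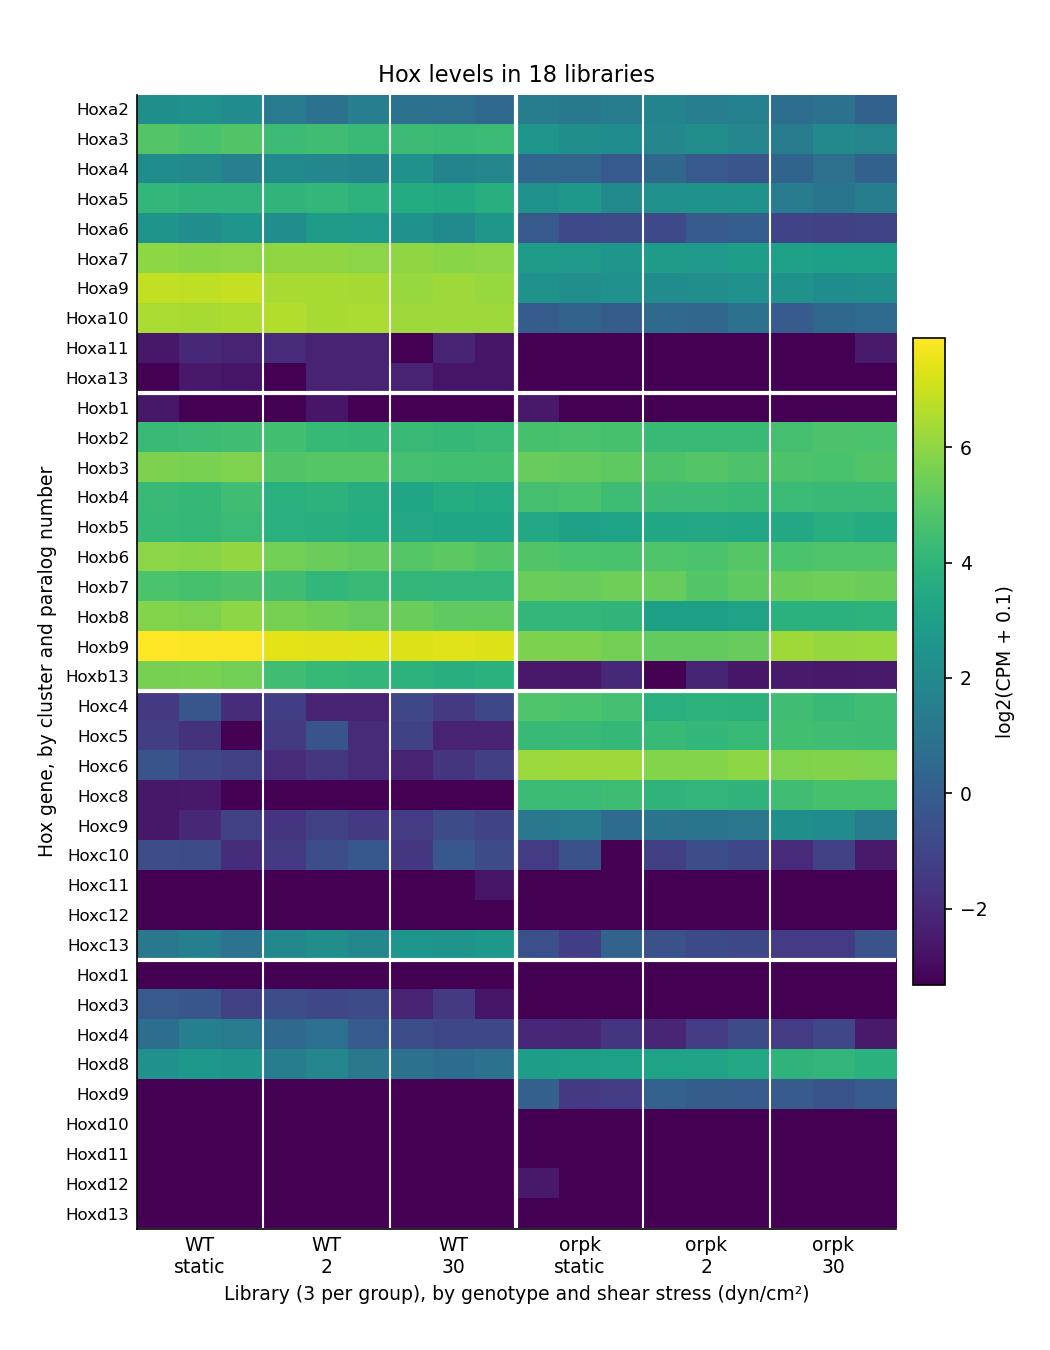
Level of 38 Hox genes (vertical axis, by cluster and paralog number) in the 18 libraries (horizontal axis, by group), as colour on a log2(CPM + 0.1) scale. Hoxa10 and Hoxb13 are bright in the wild-type libraries alone, and Hoxa6, Hoxa7 and Hoxa9 are brighter there. Hoxc4, Hoxc5, Hoxc6 and Hoxc8 are bright in the orpk libraries alone, and Hoxc9 is brighter there. Hoxc12, Hoxd1, Hoxd10, Hoxd11 and Hoxd13 are at 0 reads throughout.

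Levels of different genes are compared per kilobase of exon (CPM per kb). Summed over a cluster, HoxA stood at 94.96 ± 3.22 CPM per kb (SD, n = 3) in static wild-type cells and 10.5 ± 1.36 in static orpk cells. HoxB stood at 213 ± 5.90 and 93.9 ± 2.79, HoxC at 1.61 ± 0.391 and 55.3 ± 0.835, and HoxD at 2.93 ± 0.419 and 3.25 ± 0.137. The 3 libraries of each genotype did not overlap for HoxA, HoxB or HoxC, and did overlap for HoxD. Of the summed Hox level in static culture, HoxB thus made up 68.1% in wild-type and 57.6% in orpk cells, HoxA 30.4% and 6.43%, HoxC 0.518% and 33.9%, and HoxD 0.940% and 2.00%. All 39 genes together summed to 312 ± 8.42 CPM per kb in static wild-type cells, 239 ± 10.5 at 2 dyn/cm2 and 209.9 ± 2.63 at 30 dyn/cm2, against 163 ± 4.78, 135 ± 4.99 and 163.3 ± 0.369 in orpk cells. These sums carry no test: 3 libraries against 3 cannot give an exact permutation p under 0.1.

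**Figure D2:**
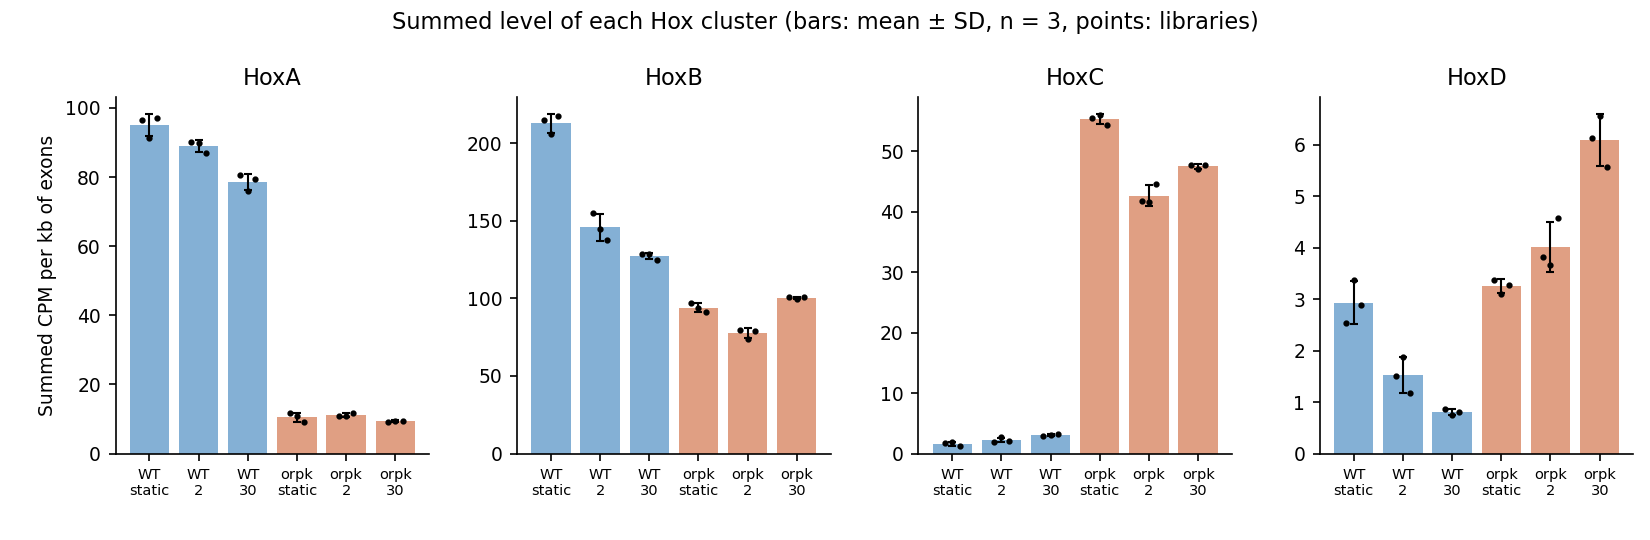
Summed level of each Hox cluster in CPM per kb of exon (vertical axis) in the 6 groups (horizontal axis), with points for libraries and the mean ± SD (n = 3). HoxA and HoxB are higher in wild-type libraries, HoxC is at 1.19 to 3.30 in wild-type and 41.6 to 55.9 in orpk libraries.

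The order of the genes within a culture also differed. In static wild-type cells Hoxb9 led at 88.8 CPM per kb, followed by Hoxb6 at 31.7 and Hoxa10 at 27.2. Hoxb8, Hoxb13, Hoxa7 and Hoxa9 came next at 21.8, 21.6, 21.4 and 20.7, and neighbours among these 4 overlapped between libraries. Hoxb9 led at both shear levels too, at 64.9 and 61.8, with Hoxa10 at rank 2. In static orpk cells Hoxc6 led at 30.8, then Hoxb7 at 26.5, Hoxb9 at 19.1 and Hoxb6 at 13.7, all without overlap. At 2 dyn/cm2 Hoxc6 (24.2) and Hoxb7 (22.1) overlapped, and at 30 dyn/cm2 Hoxb9 (28.3) and Hoxb7 (27.1) overlapped, with Hoxc6 at 22.2. Divided by the longest transcript in place of all exons, Hoxc6 led all 3 orpk groups, and Hoxa9 took rank 2 in static wild-type cells. Summed by paralog number, group 9 held the largest share of the wild-type level (109.6 CPM per kb in static culture against 21.1 in orpk cells), group 6 that of static orpk cells (45.2, against 37.8 in wild-type), and group 10, which in the embryo holds back rib formation in the lumbar region, stood at 27.4 against 0.440.

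Whether the genotypes differed was tested with edgeR's quasi-likelihood test over all 13058 genes kept by its filter, Benjamini-Hochberg adjusted within each comparison and called at 0.05. Of the 39 Hox genes, 27 passed the filter. Of these, 9 passed it through 1 genotype alone (Hoxb13, Hoxc13 and Hoxd4 through wild-type, Hoxc4, Hoxc5, Hoxc6, Hoxc8, Hoxc9 and Hoxd9 through orpk cells). The filter reads all cultures together, and for these 9 the genotype difference is given as a description, since the group where they are high is what kept them. In static culture all 27 were called, 10 higher and 17 lower in orpk cells, beside 87.8% of all genes (44.4% higher, 43.4% lower). At 2 dyn/cm2 24 were called (9 higher, 15 lower), beside 87.5%, and at 30 dyn/cm2 24 (12 higher, 12 lower), beside 86.9%. Left without wild-type 2 dyn/cm2 replicate 1, or without orpk 2 dyn/cm2 replicate 2, the comparison at 2 dyn/cm2 called 26 (9 higher, 17 lower) of 29 tested. These counts include the 9 genes above. Of the 18 genes kept through both genotypes, Hoxb2, Hoxb4, Hoxb7 and Hoxd8 were higher in static culture and the others lower. Higher among the 18 were Hoxb4, Hoxb7 and Hoxd8 at 2 dyn/cm2, and Hoxb2, Hoxb3, Hoxb4, Hoxb5, Hoxb7 and Hoxd8 at 30 dyn/cm2. With so large a share of all genes called, the counts alone say little of the Hox genes.

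The HoxA cluster (chromosome 6, 11 genes) was lower in orpk cells, and more so toward its high-numbered end. All 9 tested HoxA genes were lower in static culture, 8 at 2 dyn/cm2 and 7 at 30 dyn/cm2. The largest difference in static culture was -6.54 log2 units at Hoxa10. Across these 9 genes, which share their libraries and their stretch of chromosome, the difference and the paralog number had a Spearman correlation of -0.93 in static culture, -0.92 at 2 dyn/cm2 and -0.93 at 30 dyn/cm2.

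Hoxa10 (ENSMUSG00000000938, chr6:52231197-52240854), which patterns the lumbar region, upper hindlimb and uterus, had 88.7, 85.4 and 92.3 CPM in the 3 static wild-type libraries, 96.0, 86.1 and 88.8 at 2 dyn/cm2 and 75.8, 76.6 and 76.1 at 30 dyn/cm2. In orpk cells it had 0.856, 1.10 and 0.878 (static), 1.39, 1.203 and 1.73 (2 dyn/cm2) and 0.824, 1.29 and 1.395 (30 dyn/cm2) CPM. Every wild-type library lay above 75 CPM and every orpk library below 2 CPM. The difference was -6.54 ± 0.10 log2 units (± SE, adjusted p = 1.07e-39) in static culture, a fold of 92.8, and -5.96 and -6.02 under the 2 shear levels. Each SE given is the difference divided by the square root of the test's F statistic. Where a group has few reads, as in orpk cells here, it is smaller than the counting error.

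Hoxa10 has 2 promoter entries in RefSeq (GRCm38.p6). The one at the start of the gene, chr6:52240805-52241104 on the minus strand, is shown because the gene next to it in the order of the cluster, Hoxa11, was nearly silent in both genotypes, while Hoxa10 stood above 75 CPM in wild-type and below 2 CPM in orpk libraries. Capitals mark its 12 CG dinucleotides. The other Hoxa10 entry, chr6:52234890-52235189, holds 21.
Hoxa10: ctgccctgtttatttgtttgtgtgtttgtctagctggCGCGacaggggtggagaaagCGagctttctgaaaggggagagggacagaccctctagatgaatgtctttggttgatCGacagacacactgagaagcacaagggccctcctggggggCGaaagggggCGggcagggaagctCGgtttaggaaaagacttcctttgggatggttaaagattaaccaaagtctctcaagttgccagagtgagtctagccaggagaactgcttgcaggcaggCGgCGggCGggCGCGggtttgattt
The median over the 24 Hox promoters in the table, which cover 22 of the 39 genes, was 14.5 CG dinucleotides, beside 7 over all 32851 promoters of the same length. No methylation was measured here.

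Hoxa9 (ENSMUSG00000038227, chr6:52223100-52231089), a regulator of blood stem cells, had 115, 111 and 121 CPM in static wild-type cells, 85.6, 86.3 and 82.2 at 2 dyn/cm2 and 72.5, 75.1 and 72.3 at 30 dyn/cm2. In orpk cells its 9 libraries lay between 4.17 and 5.32 CPM (5.13, 4.59 and 4.98 in static culture, 4.17, 4.51 and 5.01 at 2 dyn/cm2 and 5.32, 4.22 and 4.73 at 30 dyn/cm2). The genotypes did not overlap, with a difference of -4.56 ± 0.07 (adjusted p = 3.28e-40) in static culture and -3.95 at 30 dyn/cm2. Hoxa7, a gene of the thoracic region, had 63.4, 59.3 and 62.1 CPM in static wild-type libraries, 65.8, 64.8 and 60.9 at 2 dyn/cm2 and 64.8, 60.4 and 60.5 at 30 dyn/cm2, and 6.85, 6.65 and 5.86 (static), 7.21, 6.49 and 7.80 (2 dyn/cm2) and 8.31, 7.93 and 8.06 (30 dyn/cm2) CPM in orpk cells. It stayed within a narrow range in wild-type cells and was 9.53-fold lower in static orpk cells (-3.25 ± 0.07, adjusted p = 4.58e-34). Hoxa6 had 5.48, 4.41 and 5.75 CPM in static wild-type cells, 4.40, 6.91 and 6.403 at 2 dyn/cm2 and 5.39, 4.05 and 6.01 at 30 dyn/cm2, and 0.784, 0.452 and 0.512 (static), 0.463, 0.842 and 0.928 (2 dyn/cm2) and 0.375, 0.357 and 0.388 (30 dyn/cm2) in orpk cells, again without overlap (-3.16, -2.95 and -3.76).

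Of the lower-numbered HoxA genes, Hoxa5, needed for lung and trachea, had 17.0, 15.8 and 15.7 CPM in static wild-type libraries, 16.1, 16.9 and 15.3 at 2 dyn/cm2 and 11.9, 10.99 and 13.1 at 30 dyn/cm2. In orpk cells it had 5.35, 6.14 and 3.88 (static), 5.03, 5.29 and 5.38 (2 dyn/cm2) and 2.32, 1.93 and 2.56 (30 dyn/cm2) CPM, below every wild-type library (-1.65, -1.62 and -2.40 log2 units). Hoxa3, needed for thymus and parathyroid, had 29.6, 25.3 and 29.0 CPM in static wild-type cells, 20.3, 22.0 and 19.0 at 2 dyn/cm2 and 20.8, 19.5 and 19.8 at 30 dyn/cm2, and 5.85, 4.72 and 4.32 (static), 3.57, 4.51 and 3.59 (2 dyn/cm2) and 2.47, 3.79 and 3.33 (30 dyn/cm2) in orpk cells (-2.50, -2.38 and -2.64). Hoxa4 was at group means of 3.89 CPM or less and was lower in orpk cells (-1.75, -1.97 and -1.60 in static, 2 and 30 dyn/cm2 culture). Hoxa2, a hindbrain gene, was lower in static orpk cells (-0.92), but at 30 dyn/cm2 the difference did not pass (-0.12, adjusted p = 0.635). Hoxa11 and Hoxa13, the genes of the forearm and the hand, were not tested: Hoxa11 had 5, 7 and 3 reads in the wild-type groups and 0, 0 and 1 in the orpk groups, and Hoxa13 had 2, 4 and 4 and then 0 in all 9 orpk libraries.

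**Figure D3:**
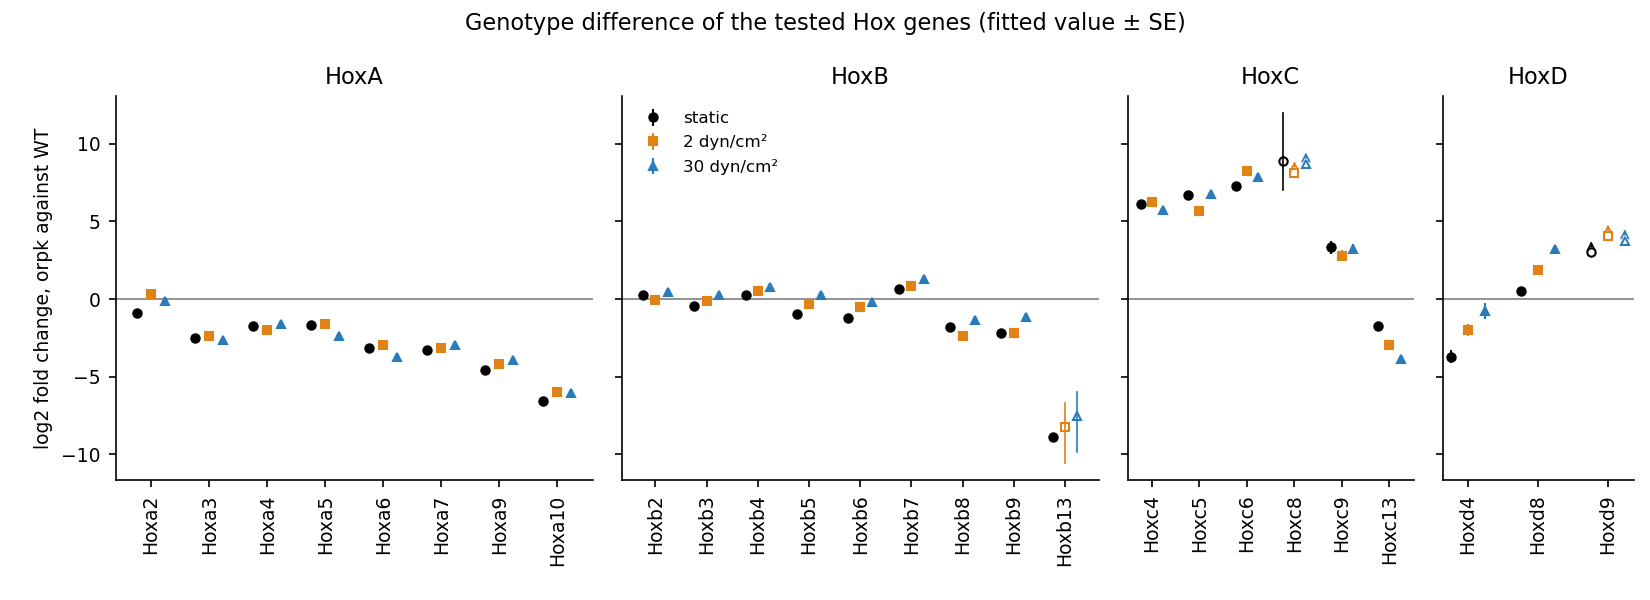
Log2 difference of orpk from wild-type cells (vertical axis) for 26 tested Hox genes by paralog number (horizontal axis) and cluster (panels). Symbols stand for static, 2 and 30 dyn/cm2 culture, with ± SE computed from edgeR's F statistic. Where a group has few reads, that SE is smaller than the counting error. Open symbols with an arrow are lower bounds where wild-type had 0 reads, and open symbols with a line are ratios with 95% counting intervals where a group had 1 to 3 reads; HoxA lies below 0 except Hoxa2 at 2 dyn/cm2 and deepens to the right, HoxC lies above 0 except Hoxc13.

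The HoxB cluster (chr11:96194316-96368256, 10 genes) did not move as a block. In static culture Hoxb2, Hoxb4 and Hoxb7 were higher in orpk cells, and Hoxb3, Hoxb5, Hoxb6, Hoxb8, Hoxb9 and Hoxb13 were lower. Differences again went lower with the paralog number (Spearman correlation over the 9 tested genes -0.73 in static culture and -0.68 at both shear levels, a description over genes of the same libraries). The 9 include Hoxb13, which passed the filter through wild-type cells alone and had the lowest value in each culture.

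Hoxb13 (ENSMUSG00000049604, chr11:96194316-96197447), the last gene of the cluster and known from the tail bud, hindgut and prostate, set the genotypes furthest apart among the HoxB genes. It had 48.6, 49.1 and 45.2 CPM in static wild-type libraries (2234 reads in all), 21.8, 18.2 and 17.0 at 2 dyn/cm2 and 15.2, 13.0 and 14.1 at 30 dyn/cm2. The 3 orpk groups had 4, 3 and 3 reads. Every wild-type library thus stood far above every orpk library, with a difference of -8.89 in static culture that rests on 4 orpk reads. The ratio of wild-type to orpk was 304 at 2 dyn/cm2 (95% counting interval 104 to 1475) and 189 at 30 dyn/cm2 (64.3 to 917).

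Hoxb9 (ENSMUSG00000020875, chr11:96271457-96276595), a thoracic gene and the highest Hox gene per kb in wild-type cells, had 237, 223 and 225 CPM in static wild-type libraries, 172, 169 and 161 at 2 dyn/cm2 and 159, 162 and 157 at 30 dyn/cm2. In orpk cells it had 50.9, 50.4 and 46.5 (static), 36.6, 36.3 and 38.4 (2 dyn/cm2) and 77.2, 69.6 and 71.5 (30 dyn/cm2) CPM. No orpk library reached a wild-type library, but the gap was narrower at 30 dyn/cm2 (-1.13 ± 0.04) than in static culture (-2.21 ± 0.04, adjusted p = 3.82e-36). Hoxb8, a gene of the trunk and of myeloid cells, had 56.6, 52.2 and 63.3 CPM in static wild-type cells, 47.6, 43.9 and 39.3 at 2 dyn/cm2 and 39.7, 35.8 and 35.9 at 30 dyn/cm2, and 17.2, 17.1 and 16.03 (static), 8.27, 8.12 and 8.73 (2 dyn/cm2) and 14.4, 14.0 and 15.0 (30 dyn/cm2) in orpk cells. All orpk libraries were lower (-1.78, -2.38 and -1.36), furthest at 2 dyn/cm2. Hoxb6 had 60.8, 59.5 and 66.3 CPM in static wild-type cells, 44.9, 39.8 and 36.7 at 2 dyn/cm2 and 30.3, 33.1 and 28.9 at 30 dyn/cm2, and 28.4, 26.4 and 25.8 (static), 27.8, 26.5 and 30.2 (2 dyn/cm2) and 26.4, 28.01 and 27.6 (30 dyn/cm2) in orpk cells. Its wild-type level came down to the orpk level, so that the difference was -1.22 in static culture and -0.17 at 30 dyn/cm2 (adjusted p = 0.0287). That last call was lost without wild-type 30 dyn/cm2 replicate 2 (-0.11, adjusted p = 0.18), orpk 30 dyn/cm2 replicate 1 (-0.14, adjusted p = 0.102) or orpk 30 dyn/cm2 replicate 3 (-0.18, adjusted p = 0.0501).

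Hoxb7, a gene of the trunk, had the widest margin of the HoxB genes that were higher in orpk cells. It had 26.0, 24.8 and 26.8 CPM in static wild-type libraries, 21.8, 17.0 and 19.2 at 2 dyn/cm2 and 17.1, 16.5 and 16.8 at 30 dyn/cm2, and 41.3, 39.3 and 42.1 (static), 38.3, 29.3 and 34.8 (2 dyn/cm2) and 41.3, 42.4 and 41.9 (30 dyn/cm2) in orpk cells. The libraries did not overlap in any culture, and the difference was 0.66, 0.81 and 1.32 ± 0.08 log2 units. Hoxb4, known for its effect on blood stem cell expansion, had 19.1, 17.4 and 21.7 CPM in static wild-type cells, 13.6, 15.0 and 12.7 at 2 dyn/cm2 and 9.77, 12.2 and 11.6 at 30 dyn/cm2, and 23.6, 25.1 and 21.2 (static), 20.6, 20.6 and 18.9 (2 dyn/cm2) and 20.1, 18.5 and 19.5 (30 dyn/cm2) in orpk cells. It overlapped in static culture (0.26, adjusted p = 0.00325, a call lost with library totals as the scale at 0.05, adjusted p = 0.599) and was higher in orpk cells under flow (0.55 and 0.79). Hoxb2, a hindbrain gene, stood at 19.2, 20.2 and 21.6 CPM in static wild-type cells, 22.5, 18.4 and 17.4 at 2 dyn/cm2 and 19.4, 17.4 and 18.9 at 30 dyn/cm2, and at 24.6, 25.3 and 24.5 (static), 18.8, 19.2 and 18.6 (2 dyn/cm2) and 23.8, 27.1 and 26.5 (30 dyn/cm2) in orpk cells. Its genotype differences were 0.29 (0.07, adjusted p = 0.392, with library totals), -0.04 (adjusted p = 0.598, and -0.27, adjusted p = 0.00208, with library totals) and 0.48. With flow it was not called in wild-type cells. In orpk cells it was called lower at 2 dyn/cm2 than in static culture and higher at 30 than at 2 dyn/cm2.

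Hoxb3 and Hoxb5 crossed over. Hoxb3 had 50.5, 50.2 and 52.4 CPM in static wild-type libraries, 28.9, 30.6 and 30.4 at 2 dyn/cm2 and 23.0, 22.7 and 22.2 at 30 dyn/cm2, and 38.9, 36.2 and 34.7 (static), 26.7, 29.3 and 27.1 (2 dyn/cm2) and 26.9, 25.5 and 28.4 (30 dyn/cm2) in orpk cells. Hoxb5, a gene of the gut nervous system and of blood stem cells, had 17.95, 17.7 and 19.8 CPM in static wild-type libraries, 13.6, 13.3 and 12.2 at 2 dyn/cm2 and 10.8, 9.82 and 9.48 at 30 dyn/cm2, and 10.8, 8.33 and 8.93 (static), 10.6, 10.9 and 10.1 (2 dyn/cm2) and 10.9, 12.9 and 11.7 (30 dyn/cm2) in orpk cells. Both were lower in static orpk cells without overlap (-0.48 and -0.99). At 30 dyn/cm2 both were called higher (0.25 and 0.24), but with library totals as the scale these values turned to -0.07 and -0.08 (adjusted p = 0.337 and 0.467), so the direction at 30 dyn/cm2 rests on the scale. The Hoxb5 call was also lost without wild-type 30 dyn/cm2 replicate 2 or 3 (0.22 and 0.20, adjusted p = 0.0578 and 0.0869) or orpk 30 dyn/cm2 replicate 2 (0.17, adjusted p = 0.148). Hoxb3 shares 52.9% of its exon bases with an antisense gene and Hoxb2 27.3%. Whether the counting used strand is not given in the sources used here, so reads of Hoxb3 and its antisense partner cannot be told apart. The same holds for parts of Hoxa11 (35.0%), Hoxa3 (25.4%), Hoxa7 (20.4%), Hoxa4 (16%), Hoxd4 (11.8%), Hoxd3 (8.78%) and Hoxb5 (3.59%). Hoxb1, which marks a single hindbrain segment, had 1, 1 and 0 reads in the wild-type groups and 1, 0 and 0 in the orpk groups.

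The middle of the HoxC cluster (chr15:102921103-103036852, 9 genes) was on in orpk cells and at or near 0 in wild-type cells. Hoxc6 (ENSMUSG00000001661, chr15:102998257-103011881), a thoracic gene also known from the mammary gland, had 73.2, 74.8 and 74.8 CPM in static orpk libraries, 56.4, 56.0 and 62.4 at 2 dyn/cm2 and 53.3, 53.6 and 53.5 at 30 dyn/cm2. Wild-type libraries held 0.653, 0.420 and 0.345 CPM in static culture, 0.163, 0.240 and 0.163 at 2 dyn/cm2 and 0.120, 0.222 and 0.331 at 30 dyn/cm2, from 22, 10 and 12 reads a group. The genotypes were far apart, by 7.29 log2 units in static culture, 8.22 at 2 dyn/cm2 and 7.83 at 30 dyn/cm2. Hoxc8 (ENSMUSG00000001657, chr15:102990607-102994111), which places thoracic vertebrae and motor neurons, had 19.9, 20.0 and 21.1 CPM in static orpk libraries, 15.6, 16.4 and 15.3 at 2 dyn/cm2 and 21.9, 24.3 and 24.9 at 30 dyn/cm2. Wild-type cells had 2 reads in static culture and 0 under both shear levels. The ratio was 477 in static culture (95% counting interval 132 to 3945), and Hoxc8 was at least 281-fold higher at 2 dyn/cm2 and at least 418-fold higher at 30 dyn/cm2, against a floor of 3 reads over the wild-type group.

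Hoxc4 had 27.8, 26.3 and 23.1 CPM in static orpk libraries, 13.7, 15.0 and 14.7 at 2 dyn/cm2 and 21.5, 18.6 and 21.9 at 30 dyn/cm2, and 0.261, 0.700 and 0.172 (static), 0.326, 0.120 and 0.109 (2 dyn/cm2) and 0.419, 0.277 and 0.441 (30 dyn/cm2) CPM in wild-type cells, with 17, 10 and 20 reads a group. Hoxc5 had 18.8, 19.2 and 17.9 CPM in static orpk libraries, 19.3, 17.0 and 19.4 at 2 dyn/cm2 and 22.6, 21.5 and 21.3 at 30 dyn/cm2, and 0.326, 0.210 and 0 (static), 0.272, 0.661 and 0.163 (2 dyn/cm2) and 0.360, 0.111 and 0.110 (30 dyn/cm2) CPM in wild-type cells. Both genes of the neck region were higher in every orpk library than in any wild-type library, by 6.12 and 6.71 log2 units in static culture. Hoxc9, which sets the identity of thoracic motor neurons, was low in orpk cells (group means of 1.98, 1.98 and 3.76 CPM) and lower in wild-type cells (9, 15 and 21 reads a group, 3.33 in static culture). The high-numbered HoxC genes did not follow. Hoxc10 had 18, 28 and 26 reads in the wild-type groups and 13, 21 and 8 in the orpk groups, Hoxc11 had 1 read in all, and Hoxc12 had none. Hoxc5 and Hoxc10 share 5.37% and 8.70% of their exon bases on the same strand.

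Hoxc13, the gene of hair and nails at the far end of the cluster, went the other way. It had 2.15, 2.73 and 1.84 CPM in static wild-type libraries, 3.64, 4.63 and 3.58 at 2 dyn/cm2 and 5.75, 5.55 and 6.18 at 30 dyn/cm2, and 0.571, 0.323 and 1.10 (static), 0.595, 0.481 and 0.433 (2 dyn/cm2) and 0.300, 0.286 and 0.620 (30 dyn/cm2) in orpk cells. All orpk libraries were lower, with a difference of -1.76 in static culture and -3.85 ± 0.27 at 30 dyn/cm2. Wild-type cells thus had the genes numbered 13 of HoxB and HoxC (Hoxb13 and Hoxc13), 2 to 4 reads a group of Hoxa13, and no read of Hoxd13, with the genes between Hoxb9 and Hoxb13 absent from the mouse cluster and those between Hoxc4 and Hoxc12 at low or 0 reads.

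The HoxD cluster (chr2:74668310-74765142, 9 genes) was mostly silent. Hoxd8 (ENSMUSG00000027102, chr2:74704615-74707933) was its highest gene in both genotypes, at 4.96, 6.23 and 5.52 CPM in static wild-type libraries, 2.55, 3.36 and 2.12 at 2 dyn/cm2 and 1.798, 1.44 and 1.76 at 30 dyn/cm2, and 7.77, 8.07 and 8.42 (static), 8.99, 8.60 and 10.95 (2 dyn/cm2) and 15.5, 16.8 and 14.1 (30 dyn/cm2) in orpk cells. Orpk cells had more in every culture, and the gap widened from 0.54 ± 0.13 in static culture to 1.84 at 2 dyn/cm2 and 3.21 ± 0.15 (adjusted p = 2.59e-23) at 30 dyn/cm2. Hoxd9 had 0 reads in all 9 wild-type libraries and 22, 45 and 31 reads in the orpk groups, at least 7.99-, 16.7- and 13.6-fold higher. Hoxd3 and Hoxd4, neighbours that share 9.26% and 13.2% of their exon bases with each other, were low. Of their 50-base windows, 60.3% and 46.8% also occurred in another annotated gene that overlaps them. How reads from such windows were counted is not given in the sources used here. Hoxd3 had 28, 26 and 8 reads in wild-type groups and 0 in every orpk library, at least 8.57-, 7.76- and 2.03-fold lower. Hoxd4 had group means of 2.22, 1.26 and 0.475 CPM in wild-type cells and 7, 15 and 11 reads in the orpk groups, and at 30 dyn/cm2 the genotype difference did not pass (-0.77, adjusted p = 0.169). Of the others, Hoxd12 had 1 read in the series.

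The wild-type Hox code was lower under flow. The question here is whether Hox levels differed between the cultures within a genotype. All comparisons with static culture share the same 3 static libraries of that genotype. In wild-type cells 15 of the 27 tested Hox genes were called at 2 dyn/cm2 against static, 1 higher and 14 lower, beside 62.9% of all genes (32.6% higher, 30.3% lower). At 30 dyn/cm2 against static 16 were called, 1 higher and 15 lower, beside 66.9% (34.1% and 32.7%), and between the 2 shear levels 13, 1 higher and 12 lower, beside 33.1% (15.9% and 17.2%). The share of the 27 called was near or below that of all genes in the first 2 comparisons, while nearly all called Hox genes were lower. But 6 of the 27 passed the filter through orpk cells alone and had few wild-type reads. A change in these 6 could hardly be called, and only Hoxc6 was, at 2 dyn/cm2. The share thus says little of the Hox genes that wild-type cells express. The Hoxc6 call was lost without wild-type static replicate 1 (-0.99, adjusted p = 0.149). It was also lost without wild-type 2 dyn/cm2 replicate 1 or 3 (-1.20, adjusted p = 0.0597, for each). The median change of the 27, these 6 included, was -0.45 at 2 dyn/cm2 and -0.52 at 30 dyn/cm2, beside 0.01 and 0.00 over all tested genes. With library totals as the scale, 17 were called at 2 dyn/cm2, 3 higher and 14 lower. Without wild-type 2 dyn/cm2 replicate 1 the count was 16 at 2 dyn/cm2 (2 higher, 14 lower) and 14 between the shear levels (1 and 13).

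In HoxB, 8 of 9 tested genes were lower at 2 and at 30 dyn/cm2, all but Hoxb2. Hoxb13 fell most of the genes above 5 CPM, by 1.32 log2 units at 2 dyn/cm2 and 1.76 at 30 dyn/cm2 (SE 0.07, adjusted p = 2.13e-23), and its 3 groups did not overlap at any step. At 30 dyn/cm2 Hoxd8, of another cluster, came close (-1.73) and is not separated from it. Hoxb3 changed by -1.17 ± 0.06 (adjusted p = 2.56e-21) at 30 dyn/cm2, Hoxb6 by -1.02 ± 0.06, Hoxb5 by -0.89 ± 0.09 and Hoxb4 by -0.80. Hoxb7, Hoxb8 and Hoxb9, the last with the highest level of all, changed by -0.63, -0.63 and -0.52 ± 0.04. The HoxB sum went from 213 CPM per kb in static culture to 146 ± 8.73 and 127 ± 2.07, with no overlap between the 3 cultures.

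In HoxA, 5 of 9 tested genes were lower at 30 dyn/cm2. Hoxa2, which specifies the second pharyngeal arch, had 4.63, 4.83 and 4.20 CPM in static wild-type libraries, 2.44, 1.74 and 2.66 at 2 dyn/cm2 and 1.74, 1.66 and 1.32 at 30 dyn/cm2, with a change of -1.52 ± 0.18 (adjusted p = 7.88e-10). Hoxa9 changed by -0.66 ± 0.04, Hoxa3 by -0.49, Hoxa5 by -0.43 and Hoxa10 by -0.22, while Hoxa7 stood at 0.00 (adjusted p = 0.971). Hoxd4 and Hoxd8 were lower too. Hoxd4 had 1.57, 2.73 and 2.36 (static), 1.30, 1.62 and 0.868 (2 dyn/cm2) and 0.539, 0.444 and 0.441 (30 dyn/cm2) CPM (-2.21 ± 0.31 at 30 dyn/cm2). It passed the filter through static and 2 dyn/cm2 wild-type cells alone, so its fall at 30 dyn/cm2 is given as a description. The counts of called genes include it. Hoxd8 changed by -1.73 ± 0.18 (adjusted p = 2.06e-11). Hoxc13 alone rose, by 0.83 ± 0.19 at 2 dyn/cm2 (adjusted p = 0.00017) and 1.39 ± 0.17 at 30 dyn/cm2 (adjusted p = 2.26e-09), with the 3 cultures in order and without overlap. The nephron markers were lower under flow as well. Their sum was 1258 to 1487 CPM in static wild-type libraries, 981 to 1041 at 2 dyn/cm2 and 806 to 845 at 30 dyn/cm2, and 8 of 9 tested were lower at 30 dyn/cm2 (Pax2 -1.73, Pax8 -1.30). Their part in the fall of the Hox genes was not tested.

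**Figure D4:**
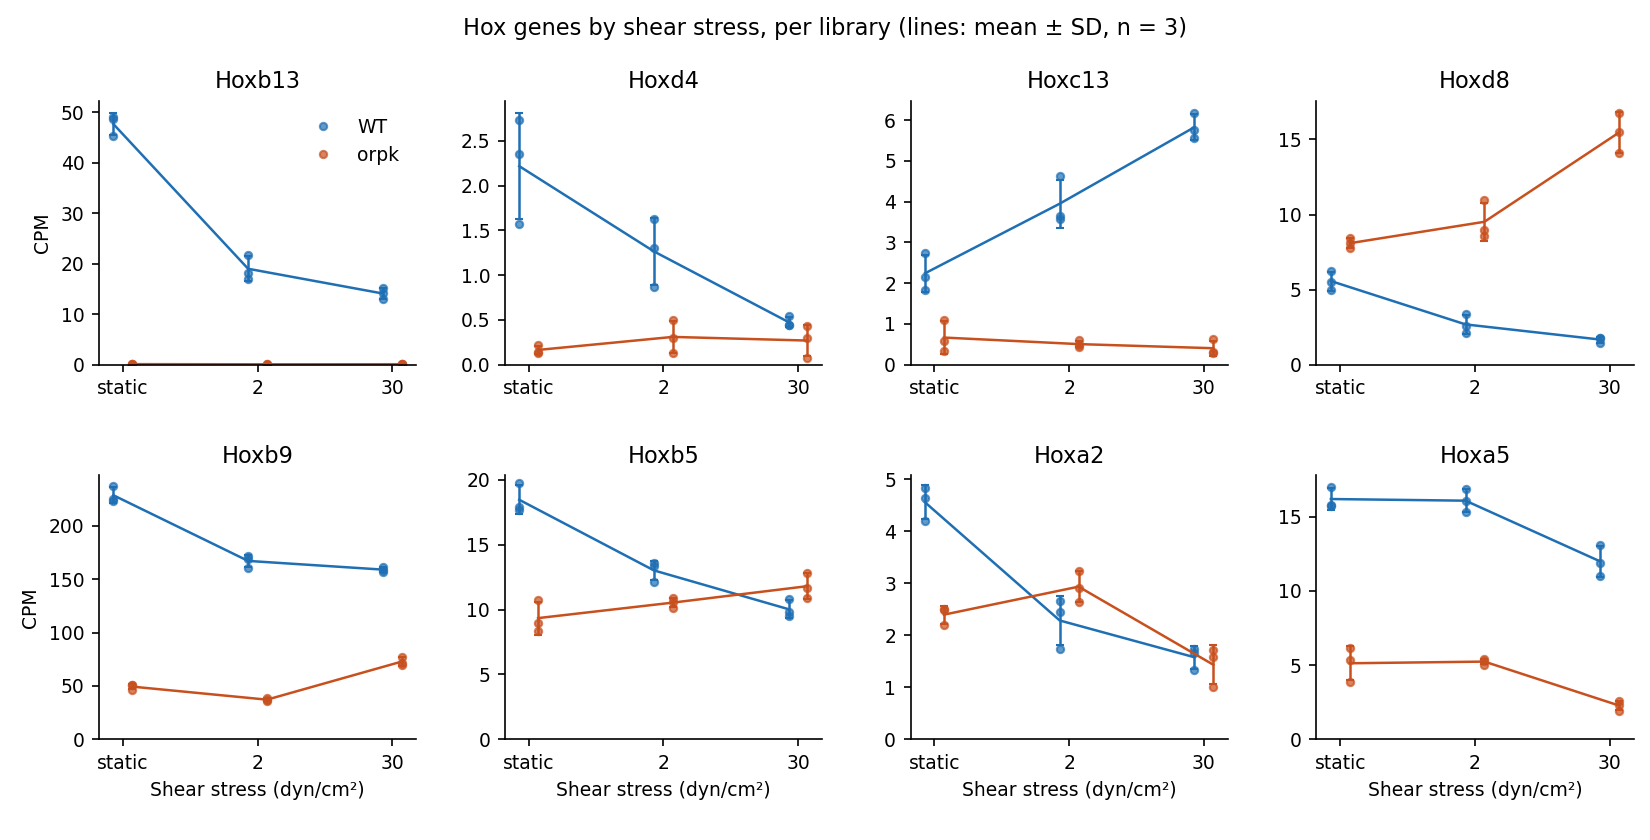
CPM (vertical axis) of Hoxb13, Hoxd4, Hoxc13, Hoxd8, Hoxb9, Hoxb5, Hoxa2 and Hoxa5 by shear stress in dyn/cm2 (horizontal axis) in wild-type and orpk cells, with points for libraries and the mean ± SD (n = 3); the 8 genes were chosen after their values were seen. Hoxb13 goes from 47.7 to 14.1 CPM in wild-type cells, Hoxc13 from 2.24 to 5.83, and Hoxd8 goes down in wild-type and up in orpk cells.

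In orpk cells the called Hox genes were all lower at 2 dyn/cm2 and went both ways at 30 dyn/cm2. At 2 dyn/cm2 against static 9 of 27 were called, all lower, beside 62% of all genes (31.1% lower), at 30 dyn/cm2 against static 16, 8 higher and 8 lower, beside 69.9% (36.5% higher, 33.3% lower), and between the shear levels 13, 10 higher and 3 lower, beside 63.6% (32.1% and 31.5%). Each share of Hox genes was below that of all genes. But 3 of the 27 (Hoxb13, Hoxc13 and Hoxd4) passed the filter through wild-type cells alone and had few orpk reads. A change in these 3 could hardly be called, and none was, which lowers each share. With library totals as the scale the count at 2 dyn/cm2 was 13, 6 higher and 7 lower, and that between the shear levels 15, 9 higher and 6 lower, so which small changes passed rests on the scale. Without orpk 2 dyn/cm2 replicate 2 the counts were 12 (2 higher, 10 lower) and 12 (9 higher, 3 lower). Marker lists moved with flow too: 7 smooth muscle and pericyte markers summed to 937 to 1043 CPM in static orpk libraries, 1614 to 1845 at 2 dyn/cm2 and 3656 to 3769 at 30 dyn/cm2, and 8 of 10 fibroblast markers were lower at 30 dyn/cm2. Their part in the Hox changes was not tested.

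The changes that follow kept their call under every alternative run and without any single library, Hoxa2 excepted. Hoxb8 fell at 2 dyn/cm2 (-1.004 ± 0.10, adjusted p = 4.27e-11) and was higher again at 30 than at 2 dyn/cm2 (0.79 ± 0.11). Hoxc4 took the same course, -0.83 ± 0.09 and then 0.51. Hoxb9 fell by 0.41 at 2 dyn/cm2 and at 30 dyn/cm2 was above its static level (0.56 ± 0.05, adjusted p = 3.24e-13). At 30 dyn/cm2 against static Hoxd8 rose (0.94 ± 0.11, adjusted p = 5.58e-10), as did Hoxc9 (0.92 ± 0.21) and Hoxb5 (0.34 ± 0.10), and Hoxa5 (-1.19 ± 0.18, adjusted p = 1.45e-07), Hoxa3 (-0.63), Hoxc6 (-0.47 ± 0.05) and Hoxb3 (-0.44) fell. Hoxa2 had 2.50, 2.20 and 2.49 (static), 3.24, 2.65 and 2.91 (2 dyn/cm2) and 1.57, 1.71 and 1.01 (30 dyn/cm2) CPM (-0.73 at 30 dyn/cm2, and -0.53, adjusted p = 0.0545, without orpk 30 dyn/cm2 replicate 3).

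Hoxb8 is the Hox gene of the RefSeq promoter table that holds both motifs searched, TGATNNAT, the type of site that HOX and PBX proteins bind together, and TTTATNG, the type that CDX and high-numbered HOX proteins bind. Both strands were searched and the 2 motifs do not overlap here. Its promoter (GRCm38.p6, chr11:96281655-96281954, plus strand) is shown with the matches in capitals, 1 to TGATNNAT (as its reverse complement) and 3 to TTTATNG.
Hoxb8: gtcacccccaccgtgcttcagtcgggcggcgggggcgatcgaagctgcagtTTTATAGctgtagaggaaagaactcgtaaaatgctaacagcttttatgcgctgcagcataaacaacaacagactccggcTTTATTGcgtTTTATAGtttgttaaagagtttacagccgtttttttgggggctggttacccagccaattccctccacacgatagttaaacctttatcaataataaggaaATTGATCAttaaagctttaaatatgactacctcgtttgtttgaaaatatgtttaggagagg
Of all 32851 promoters 8.85% hold a match to TGATNNAT and 10.9% to TTTATNG, and of the 24 Hox promoters 4 (of Hoxa2, Hoxb1, Hoxb8 and Hoxd11) and 2 (of Hoxb8 and Hoxd4). A match is no measured binding site.

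Whether the 2 genotypes differed in their response to flow was tested as an interaction, the orpk change minus the wild-type change. At 30 dyn/cm2 against static it passed for 15 of 27 Hox genes, 13 of them positive, beside 57.5% of all genes (30.6% positive). At 2 dyn/cm2 against static it passed for 11, 8 of them positive, beside 52.6% (27.1% positive), and for the step from 2 to 30 dyn/cm2 for 10, 9 of them positive, beside 46.5% (25% positive). Without wild-type static replicate 3 the count at 2 dyn/cm2 was 7. Without wild-type 2 dyn/cm2 replicate 1 the counts at 2 dyn/cm2 and for the step were 10 and 10, and without orpk 2 dyn/cm2 replicate 2 they were 10 and 9. The median interaction of the 27 at 30 dyn/cm2 was 0.54, beside 0.01 over all tested genes.

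At 30 dyn/cm2 the widest divergence that passed among genes above 5 CPM was that of Hoxd8, which fell by 1.73 in wild-type and rose by 0.94 in orpk cells (interaction 2.67 ± 0.21, adjusted p = 1.69e-14). Hoxb9 and Hoxb5 also went opposite ways, each lower with flow in wild-type and higher in orpk cells (interactions 1.08 ± 0.06, adjusted p = 1.81e-18, and 1.23 ± 0.14, adjusted p = 2.79e-10). Called in both genotypes in the same direction were Hoxa2, Hoxa3, Hoxa5, Hoxb3, Hoxb4 and Hoxb8, all lower, though in orpk cells Hoxb8 at -0.22 (adjusted p = 0.0419) lost its call without static replicate 1 or 2 or any of the 3 libraries at 30 dyn/cm2 (-0.24 to -0.19, adjusted p up to 0.119). Of these Hoxa5 fell further in orpk cells (interaction -0.76), and Hoxb3, Hoxb4 and Hoxb8 fell less there (0.73, 0.53 and 0.41). Hoxb6 was lower in wild-type cells and stood at 0.03 (adjusted p = 0.787) in orpk cells (interaction 1.05). Hoxc13 rose in wild-type cells and stood at -0.70 (adjusted p = 0.177) in orpk cells (interaction -2.09 ± 0.49, adjusted p = 0.000364). For Hoxb13, with 3 or 4 reads in each orpk group, a response in orpk cells was not detectable at this depth.

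**Figure D5:**
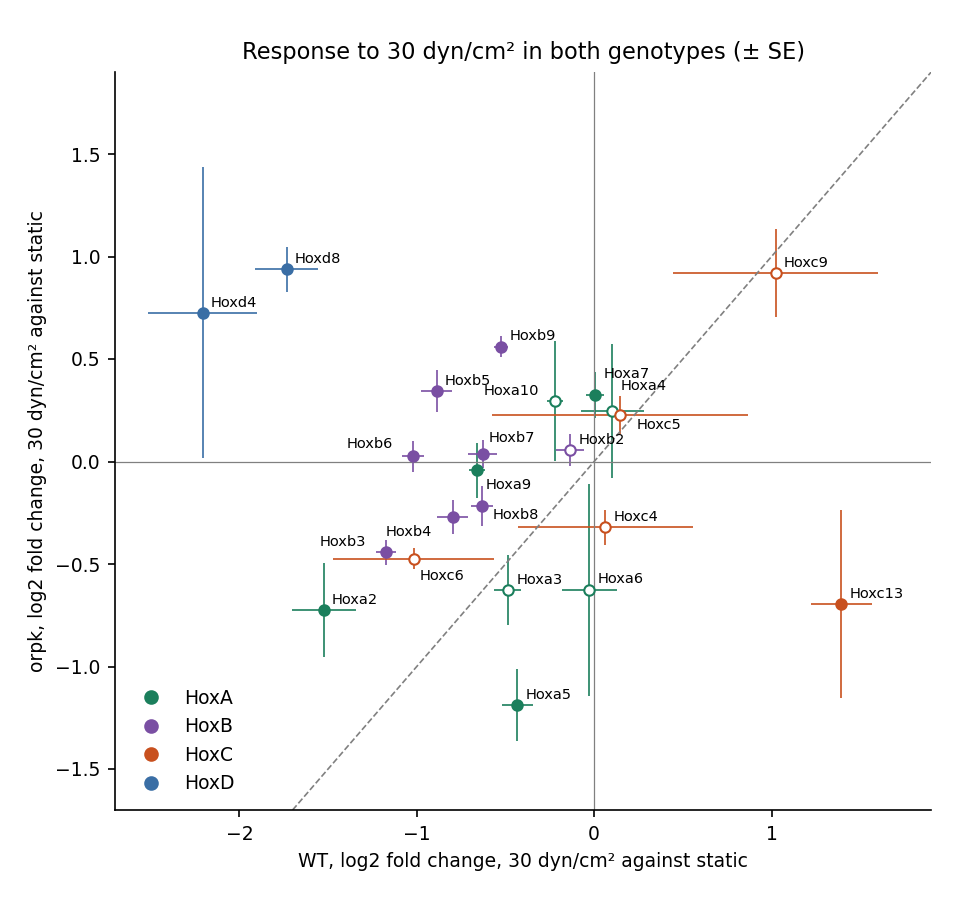
Log2 change at 30 dyn/cm2 against static in orpk cells (vertical axis) against that in wild-type cells (horizontal axis), both ± SE, for 23 Hox genes with more than 3 reads in every group; filled points passed the interaction test and the dashed line marks equal change. Hoxd8, Hoxb9 and Hoxb5 lie left of 0 and above 0, and Hoxc13 lies right of 0 and below 0.

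The partners and regulators of the Hox genes were measured from lists. Beside them stand the same shares of all genes: 87.8% were called between the genotypes in static culture (44.4% higher, 43.4% lower in orpk cells), 66.9% at 30 dyn/cm2 against static in wild-type cells (34.1% higher, 32.7% lower) and 69.9% in orpk cells (36.5% and 33.3%). Of the 11 TALE cofactors, 4 were higher and 5 lower in static orpk cells, a called share near that of all genes. Meis1, which binds DNA with HOX and PBX proteins, stood at 10.1 ± 1.03 CPM (SD, n = 3) in static wild-type and 95.7 ± 5.22 in static orpk cells (3.24 ± 0.07, adjusted p = 8.57e-35), and Pbx3 at 58.9 ± 4.12 and 17.6 ± 0.977 (-1.75). Under 30 dyn/cm2 1 of 11 was higher and 9 lower in wild-type cells, and 2 and 7 in orpk cells. The largest of these were Pknox2 (-1.86) in wild-type and Meis2 (-2.25) and Tgif1 (1.33) in orpk cells.

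Of 29 Polycomb genes, 5 were higher and 20 lower in static orpk cells, beside 87.8% of all genes called (44.4% higher, 43.4% lower). Ezh2, the enzyme that writes the silencing mark on histone H3, stood at 200.4 CPM in wild-type and 44.2 in orpk cells (-2.19 ± 0.05), and Epop, a subunit that tempers it, at 21.5 CPM and 1 read. Phf1 was higher (2.53). Of 17 Trithorax and activating genes, 3 were higher and 12 lower in the same comparison, the called share again near the 87.8% of all genes, with Dot1l, which methylates histone H3 in active genes, among those lower (-2.003). Kdm6b, which removes the Polycomb mark, fell at 30 dyn/cm2 in both genotypes (-1.04 in wild-type and -1.42 in orpk cells). Under 30 dyn/cm2, 3 Polycomb genes were higher and 14 lower in wild-type cells, and 10 and 13 in orpk cells, and 6 and 9 of the Trithorax list in wild-type and 5 and 5 in orpk cells, beside 66.9% and 69.9% of all genes called in wild-type and orpk cells.

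Of 23 genes of the Cdx and retinoic acid axis, which switches Hox clusters on in the embryo, 15 were tested, with 12 higher and 3 lower in static orpk cells, beside 87.8% of all genes called (44.4% higher). Crabp2, which carries retinoic acid inside cells, stood at 24.4 CPM in orpk and 0.656 CPM in wild-type cells, while Stra6, a retinol importer, was lower in orpk cells (1.15 against 19.8 CPM, -4.09). Cdx4 had 0 reads in all libraries, and Cdx2 at most 3 a group. At 30 dyn/cm2 1 was higher and 8 lower in wild-type cells, beside 66.9% of all genes called, and 5 and 10 in orpk cells, beside 69.9%. Of 36 other homeobox and axial regulators, 17 were tested and 13 were higher and 4 lower in static orpk cells, again beside 87.8% of all genes called. Gata6 and Tbx3 had 0 reads in wild-type cells and 22.4 and 7.76 CPM in static orpk cells, and Osr1, a gene of the intermediate and lateral mesoderm, had 0.271 and 67.6 CPM.

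Genes beside the clusters were measured as neighbours that are not Hox genes. Of 25 tested, 10 were higher and 11 lower in static orpk cells, a called share near the 87.8% of all genes. Copz2, on the chromosome of HoxB, stood at 13.6 CPM in static wild-type and 98.1 in static orpk cells (2.86), the direction of Hoxb2, Hoxb4 and Hoxb7 and opposite to the other 6 tested HoxB genes. Inside the clusters the table lists 1 other gene, 5730596B20Rik (chr6:52177498-52180851, opposite Hoxa3), at 8.81, 8.75 and 10 CPM in static wild-type libraries, 2.61, 3.604 and 3.58 at 2 dyn/cm2 and 2.996, 2.44 and 3.25 at 30 dyn/cm2. In orpk cells it had 0.571, 0.969 and 0.732 (static), 0.397, 0.481 and 0.557 (2 dyn/cm2) and 0.599, 0.786 and 0.620 (30 dyn/cm2) CPM. It was lower in orpk cells in static culture (-3.58 ± 0.19 log2 units) and lower with flow in wild-type cells (-1.67 at 30 dyn/cm2), the directions of Hoxa3. With strand use not given, reads of this gene and of Hoxa3 where they overlap cannot be told apart.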

How the data were processed

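Values are the deposited read counts per gene (18 libraries, 21647 Ensembl genes, 21583 with a symbol). Per the submitters' processing notes, reads were handled with CASAVA 1.8.2, STAR 2.4 and featureCounts 1.4.6 on GRCm38. Per the labels' protocols, libraries came from a stranded messenger RNA kit, with single 50-nt reads. Whether counting used strand, and how reads with several matches were treated, is not given in the sources used here. Counts were analysed in R 4.3.3 with edgeR 4.0.16 and limma 3.58.1: filterByExpr (about 0.638 CPM), TMM scaling, 6 group means, a robust quasi-likelihood test with 12 residual degrees of freedom, and Benjamini-Hochberg adjustment at 0.05 over the 13058 genes kept in each of 12 comparisons. The pipeline was tested on simulated counts. Locations and exon lengths came from GENCODE M21, and promoters from RefSeq (GRCm38.p6). Names of all 39 Hox genes matched. Some single genes and sequences are counted but not reported here. Bounds use a floor of 3 reads over a group, and ratios have 95% intervals, both for counting error only.

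The Hox genes and all lists were chosen with earlier results of these data known. Hox genes with a group mean of at least 5 CPM (21 genes) were given for every library, and of each other list those with the 4 largest called differences between genotypes in static culture and the 2 largest in each shear comparison could be named. Alternatives were a replicate block, leaving out each library, fits of only the groups compared, DESeq2 1.42.0, unfiltered genes, RLE scaling and library totals. Deviations of libraries with the same replicate number correlated at -0.0824 to 0.086 over 27 pairs, so the numbers pair no libraries.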

Additional observations from a re-analysis of the deposited data

Results flagged for a closer look

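The results below were picked out because the response to flow differed between the 2 genotypes by a test of the difference itself (interaction, orpk change minus wild-type change in log2 units, edgeR's quasi-likelihood test with Benjamini-Hochberg adjustment). There are 34 of them over 15 genes. Each shares its static or 2 dyn/cm2 libraries with the others, so they are not independent of each other.

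For 2 dyn/cm2 against static the response of orpk cells was the more positive for Hoxd4 (1.73), Hoxd8 (1.30), Hoxa2 (1.27), Hoxb5 (0.69), Hoxb6 (0.69), Hoxb3 (0.37), Hoxa9 (0.36) and Hoxb4 (0.29). It was the more negative for Hoxc13 (-1.19), Hoxb8 (-0.60) and Hoxb2 (-0.33). Of these, Hoxc13 lost its call without orpk static replicate 3 (-0.64, adjusted p = 0.335), wild-type static replicate 3 or orpk 2 dyn/cm2 replicate 2 or 3, Hoxb2 without wild-type 2 dyn/cm2 replicate 1 (-0.21, adjusted p = 0.0942), and Hoxa9 without wild-type static replicate 3, orpk static replicate 2 or orpk 2 dyn/cm2 replicate 3 (0.28, adjusted p = 0.128). Hoxb4 and Hoxd4 each lost it when any of 7 single libraries was left out, and also with DESeq2 (adjusted p = 0.0764 and 0.0548).

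For 30 dyn/cm2 against static it was the more positive for Hoxd4 (2.93), Hoxd8 (2.67), Hoxb5 (1.23), Hoxb9 (1.08), Hoxb6 (1.05), Hoxa2 (0.80), Hoxb3 (0.73), Hoxb7 (0.67), Hoxa9 (0.62), Hoxb4 (0.53), Hoxb8 (0.41) and Hoxa7 (0.32), and the more negative for Hoxc13 (-2.09) and Hoxa5 (-0.76). Hoxd4 rests on 7, 15 and 11 reads in the orpk groups. It passed the filter through static and 2 dyn/cm2 wild-type cells alone, so its interactions, at 2 dyn/cm2 too, are given as a description. Hoxa2 lost its call without wild-type 30 dyn/cm2 replicate 3 or orpk 30 dyn/cm2 replicate 1 or 2 (0.65, adjusted p = 0.111, for the last), and Hoxa7 without orpk static replicate 3 (0.26, adjusted p = 0.0959) or orpk 30 dyn/cm2 replicate 1. Both also lost it with DESeq2 (adjusted p = 0.0552 and 0.0606), and Hoxa7 with library totals as the scale (0.22, adjusted p = 0.122).

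For the step from 2 to 30 dyn/cm2 it was the more positive for Hoxd8 (1.37), Hoxb9 (1.04), Hoxb8 (1.02), Hoxb5 (0.54), Hoxb2 (0.52), Hoxb7 (0.51), Hoxb3 (0.36) and Hoxb6 (0.35), and the more negative for Hoxa5 (-0.79). These kept their calls without each library in turn.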

How the results depend on the processing

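Of the tested values of single Hox genes, 322 kept direction and side of the threshold with RLE scaling, 322 with a replicate block, 320 with no filter, 311 with DESeq2 and 300 with library totals. Library totals shifted the median of all genes by -0.21, -0.20 and -0.28 between genotypes (static, 2 and 30 dyn/cm2), by 0.12 in wild-type cells at 2 dyn/cm2 and by -0.12 in orpk cells between the shear levels, and reversed Hoxb3 (-0.065) and Hoxb5 (-0.0753) between genotypes at 30 dyn/cm2, both then short of the threshold. The counts of called Hox genes stayed within 1.5 times of those reported under all alternatives except 1: the interaction at 2 dyn/cm2, 11 genes, ran from 7 (without wild-type static replicate 3) to 11 over the leave-one-out fits; the cause was not tested. With the longest transcript as length, Hoxc6 stood at 47.0 and 36.9 CPM per kb in orpk cells in static and 2 dyn/cm2 culture, by construction higher than over all exons. The replicate block added calls for Hoxb7 in wild-type cells between the shear levels (-0.21, adjusted p = 0.0363) and Hoxd9 in orpk cells at 2 dyn/cm2 (0.88, adjusted p = 0.0488) and lost none. Every genotype difference over 1 log2 unit kept its call in every fit that tested it. At 3 reads a group or fewer, changes with flow were not detectable.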
